A study of Rattus norvegicus with 9 samples.

Results

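The genes described here are 36 antioxidant and iron storage genes, chosen by gene symbol: regulators of the antioxidant response, enzymes that remove superoxide and peroxide, the glutathione and thioredoxin systems, and the genes of heme breakdown and ferritin. Of the 36 symbols, 35 were measured and all 35 passed the filter on low counts, out of 21486 genes in the deposited table and 15659 genes tested. Srxn1 is not analysed here. RNA was sequenced from tissue inside conduits that bridged a 2 cm gap in the sciatic nerve of rats, collected 14 days after implantation. The Hollow group had a conduit with an empty lumen. The AFMC group had a conduit whose lumen held aligned fibers and microchannels that run along it. In the AFMC-AA-SP group this same conduit carried spermidine, a polyamine, on the fiber surface and L-ascorbic acid, vitamin C, inside the fibers, so that the effects of these 2 agents cannot be told apart here. Each group had 3 libraries, and the labels give no strain, sex, age or number of animals. The p-values therefore measure only the spread between these libraries.

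Cells keep reactive oxygen species low with enzymes that turn superoxide into hydrogen peroxide (superoxide dismutases) and hydrogen peroxide into water (catalase, glutathione peroxidases and peroxiredoxins). Glutathione and thioredoxin supply the electrons for glutathione peroxidases and peroxiredoxins, and are themselves kept reduced by NADPH-dependent reductases. Many of these genes are targets of the transcription factor NRF2 (gene Nfe2l2), which KEAP1 holds back until oxidants or electrophiles modify it. Free ferrous iron turns peroxide into damaging radicals, so the storage of iron in ferritin and the breakdown of heme by heme oxygenase belong to the same defence, in which macrophages that digest red cells and myelin debris take a large share after nerve injury.

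Library totals ran from 18314489 to 26074134 counts. On the first principal component of the log2 levels, given as CPM (counts scaled by library size), AFMC replicate 3 had a score of 72.3, while the other 8 libraries ranged from -23.5 to 9.93. All 12 listed Schwann cell markers were detected, with a summed level of 2280 to 3424 CPM in Hollow, 1445 to 2283 in AFMC and 2211 to 2574 in AFMC-AA-SP. Macrophage markers were also all detected (12 of 12), at 4793 to 7425, 6138 to 8981 and 6164 to 8076 CPM in the same order. B and plasma cell markers (9 of 10 measured) summed to 218 to 357 CPM in Hollow and 298 to 334 in AFMC-AA-SP. In AFMC the lowest, median and highest sums were 298, 1134 and 8968 CPM, with the highest in replicate 3. The part of these cells in the results was not tested. In such bulk tissue, fewer cells of a type and less RNA per cell cannot be told apart.

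Ferritin led the set by level. On the FPKM scale, which divides the count by gene length and library total, the ferritin heavy chain gene Fth1 had a mean of 3368 over the 9 libraries and ranked 9 among the 21486 genes. The light chain gene Ftl1 had a mean of 1512 FPKM and ranked 24. Together these subunits form the shell that stores iron, and their genes took 0.335% and 0.369% of all counts. The next levels were those of Gpx1, the cytosolic glutathione peroxidase, at 527 FPKM (rank 60), and Hmox1, the inducible heme oxygenase, at 361 FPKM (rank 97). Prdx1, a cytosolic peroxiredoxin, had 301 FPKM (rank 123) and Txn1, thioredoxin itself, 287 FPKM (rank 136). At the other end were Gsta4, a glutathione transferase for lipid aldehydes, at 2.55 FPKM, and Msra, a methionine sulfoxide reductase, at 4.18 FPKM. Every library of Fth1 was above every library of Ftl1 on this scale, while the levels of Hmox1, Prdx1 and Txn1 overlapped between libraries.

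**Figure D1:**
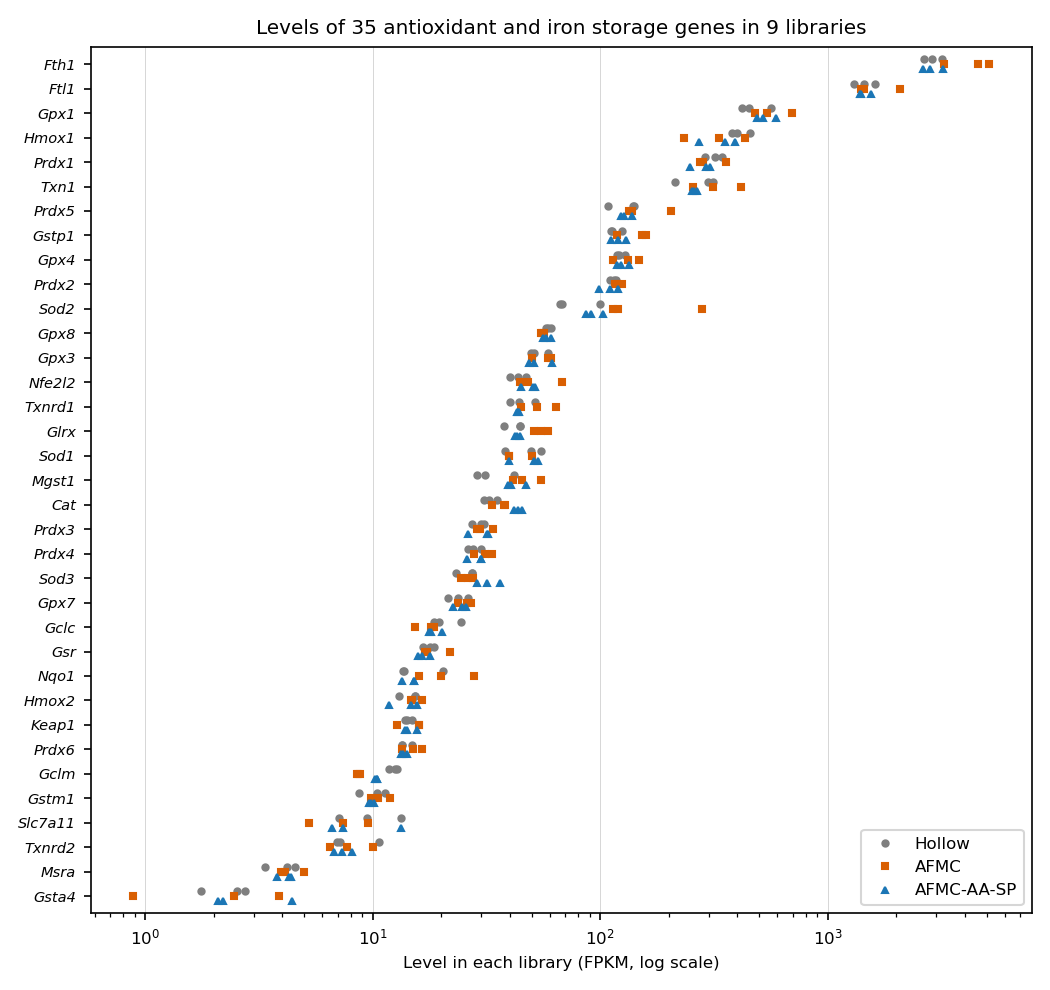
Level of each of 35 genes in each of 9 libraries, in FPKM on a log scale, with Hollow as circles, AFMC as squares and AFMC-AA-SP as triangles. Genes are ordered by their mean level, from Gsta4 at 2.55 FPKM to Fth1 at 3368 FPKM, and for most genes the symbols of the 3 groups overlap.

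The light chain value carries a limit. The symbol Ftl1 was held by 3 rows of the table, and the row with the most counts is used here. In all, 11 rows were described as ferritin light chain or like it, and the other rows together held 1.19% of that row's counts. The length that the FPKM values imply for Ftl1 was 2411 bp, against 985 bp for Fth1, so the distance between their FPKM levels depends on these annotated lengths. Of the 2 rows described as ferritin heavy chain, the row other than Fth1 held 0.000951% of its counts.

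NRF2 binds the antioxidant response element, for which the core letters TGACNNNGC were searched on both strands of promoter windows of 300 bases, 250 before and 50 after the start of the gene. RefSeq's table for the rat build GRCr8 holds such windows for 27 of the 35 genes. Of these 27, 9 had a match (33.3%): Gclm, Gstp1, Hmox2, Nfe2l2, Prdx1, Prdx4, Prdx5, Sod2 and Txnrd1. Over all 33469 promoters of the table the share was 12.1%, and over the 31 promoters of the 27 genes it was 29%. Nqo1, Gclc, Slc7a11 and Txn1 were among the genes without a match, and Hmox1, Fth1 and Ftl1 had no window. Sites outside the 300 bases were not searched. A match is a string of letters and not a measured binding site. The 5 windows below are shown because Gclm, Gstp1, Sod2 and Txnrd1 had unadjusted p-values under 0.05 in at least 1 of the comparisons that follow, while Prdx1 did not. Capitals mark the match, and each window is written from 5′ to 3′ on the strand of the gene.
Gclm, chr2:213031885-213032184, plus strand: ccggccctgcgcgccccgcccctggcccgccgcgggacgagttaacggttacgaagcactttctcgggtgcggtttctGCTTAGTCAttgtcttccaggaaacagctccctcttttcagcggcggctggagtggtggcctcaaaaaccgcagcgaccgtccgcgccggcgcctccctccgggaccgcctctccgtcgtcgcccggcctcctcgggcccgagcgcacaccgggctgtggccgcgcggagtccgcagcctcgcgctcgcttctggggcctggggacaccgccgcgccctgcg
Gstp1, chr1:210769656-210769955, minus strand: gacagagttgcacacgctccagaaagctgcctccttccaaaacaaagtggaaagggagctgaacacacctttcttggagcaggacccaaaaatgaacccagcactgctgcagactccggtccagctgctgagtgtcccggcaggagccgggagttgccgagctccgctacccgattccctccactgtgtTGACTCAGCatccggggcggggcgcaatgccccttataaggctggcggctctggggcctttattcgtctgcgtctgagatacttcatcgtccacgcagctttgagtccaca
Sod2, chr1:50050119-50050418, minus strand: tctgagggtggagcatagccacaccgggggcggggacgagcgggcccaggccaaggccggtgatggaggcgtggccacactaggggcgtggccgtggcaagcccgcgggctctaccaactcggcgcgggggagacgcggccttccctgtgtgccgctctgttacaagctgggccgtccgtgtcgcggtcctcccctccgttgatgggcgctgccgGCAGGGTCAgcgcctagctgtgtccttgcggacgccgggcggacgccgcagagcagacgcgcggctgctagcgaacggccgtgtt
Txnrd1, chr7:22755855-22756154, minus strand: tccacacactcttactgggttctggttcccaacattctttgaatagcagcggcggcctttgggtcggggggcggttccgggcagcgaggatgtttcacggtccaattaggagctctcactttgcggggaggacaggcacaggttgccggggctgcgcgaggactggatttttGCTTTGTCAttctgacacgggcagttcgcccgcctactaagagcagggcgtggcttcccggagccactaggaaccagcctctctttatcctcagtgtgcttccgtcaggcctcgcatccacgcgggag
Prdx1, chr5:135383656-135383955, plus strand: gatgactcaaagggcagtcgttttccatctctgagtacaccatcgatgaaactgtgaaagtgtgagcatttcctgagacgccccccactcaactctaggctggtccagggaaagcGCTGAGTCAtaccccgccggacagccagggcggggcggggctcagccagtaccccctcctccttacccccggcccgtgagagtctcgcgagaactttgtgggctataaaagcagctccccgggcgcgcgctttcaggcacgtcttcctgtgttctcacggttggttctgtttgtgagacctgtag
The match of Gstp1 lies on the strand of the gene and starts 61 bases before its start. The matches of Gclm, Prdx1, Txnrd1 and Sod2 lie on the other strand, and their leftmost bases stand 172, 135, 78 and 35 bases before the start. Txnrd1 had 1 more promoter in the table, which held no match.

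Set against Hollow, AFMC had slightly higher values for most of the genes, while the values of AFMC-AA-SP lay on both sides of Hollow. In AFMC the means of 25 of the 35 genes were the highest of the 3 groups (71.4%, against 42.1% of all genes tested), those of 6 were highest in Hollow and those of 4 in AFMC-AA-SP. In AFMC against Hollow, which asks what the internal guidance structure changes, 28 genes had a positive and 7 a negative log2 fold change, with a median of 0.15 (all genes tested: 52.1% positive, median 0.01). In AFMC-AA-SP against AFMC, which asks what the 2 agents add, 8 were positive and 27 negative, with a median of -0.17 (all genes: 48.0% positive, median -0.01). AFMC-AA-SP against Hollow gave 17 positive and 18 negative genes and a median of -0.01 (all genes: 50.2% positive, median 0.00). Both the first and the second of these comparisons use the 3 AFMC libraries, so their values are only set side by side.

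No single gene passed the test. With edgeR's quasi-likelihood test and Benjamini-Hochberg adjustment over all 15659 genes, 0 of the 35 genes had an adjusted p under 0.05 in any of the 3 comparisons, and 0 of all genes did (0%). The smallest adjusted p of a gene of the set was 0.102 for AFMC against Hollow, 0.122 for AFMC-AA-SP against AFMC and 1 for AFMC-AA-SP against Hollow. In AFMC against Hollow, 6 genes of the set were higher and 1 was lower at an unadjusted p under 0.05 (all genes: 8.40% and 11.1%). In AFMC-AA-SP against AFMC 3 were higher and 7 lower (all genes: 10.1% and 7.21%), and against Hollow 2 were higher and 1 lower (all genes: 1.69% and 1.55%). The levels of the 3 libraries of each group did not overlap for 6 higher and 2 lower genes in AFMC against Hollow (all genes: 10.2% and 12.3%). They did not overlap for 2 higher and 9 lower genes in AFMC-AA-SP against AFMC (all genes: 12.5% and 10.3%), and for 2 higher and 1 lower against Hollow (all genes: 5.05% and 4.96%). Over all 3 groups together, 9 genes had an unadjusted p under 0.05 (all genes: 16.1%) and 0 an adjusted one, with 0.141 the smallest by edgeR. DESeq2 called 5 in that test (5.49% of all genes).

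DESeq2, run on the same counts as another test, called 5 of the 35 genes in AFMC against Hollow at an adjusted p under 0.05, with Fth1, Glrx, Mgst1 and Sod2 higher and Gclm lower (6.52% of all genes called). It called Fth1 and Glrx lower in AFMC-AA-SP against AFMC (3.79% of all genes) and Cat higher in AFMC-AA-SP against Hollow (0.0511% of all genes). Without AFMC replicate 2, edgeR called 4 of the 35 genes in AFMC against Hollow and 3 in AFMC-AA-SP against AFMC, in a fit that called 844 and 568 of all genes (5.31% and 3.57%). The counts at an unadjusted p also moved without that library, from 6 to 11 higher genes in AFMC against Hollow (all genes: from 8.40% to 11.6%) and from 7 to 11 lower genes in AFMC-AA-SP against AFMC (all genes: from 7.21% to 10.5%). Because these calls rest on the tool or on leaving out 1 library, the genes below are described by their values.

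**Figure D2:**
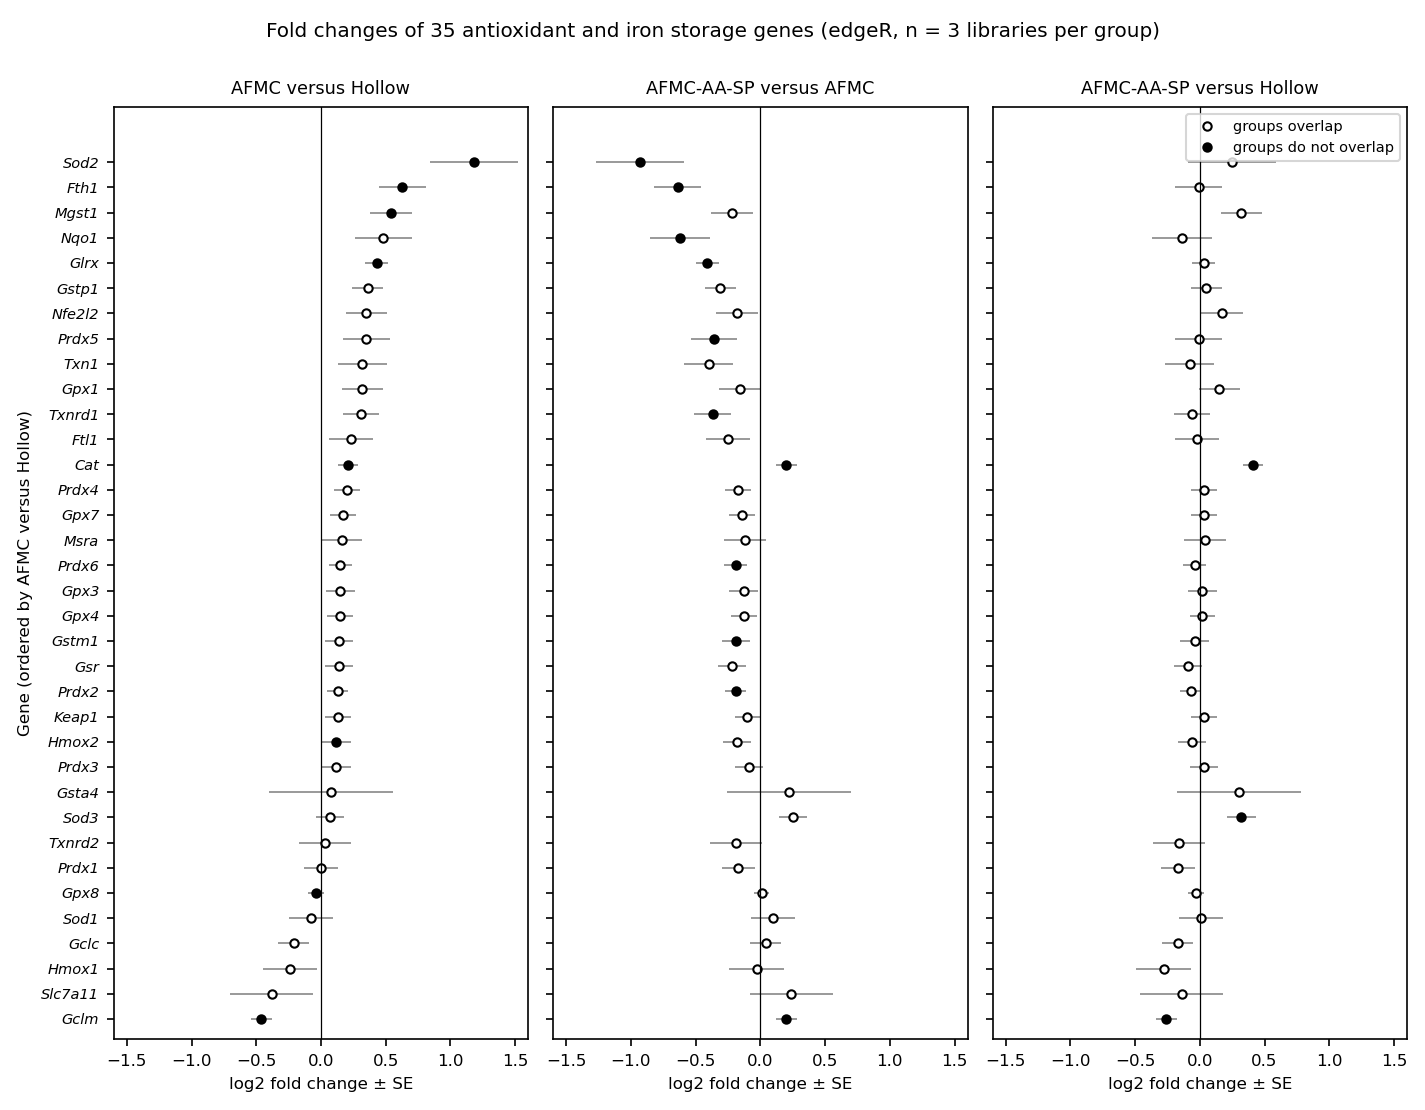
Log2 fold change of each of 35 genes in the 3 comparisons, with bars of 1 SE from edgeR and genes ordered by the values of AFMC against Hollow. Filled points mark genes whose 2 groups of 3 libraries did not overlap, which were 8, 11 and 3 genes from left to right.

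Iron storage and heme breakdown differed in pattern. Of the 5 genes for heme breakdown, ferritin and quinone reduction, 4 were positive in AFMC against Hollow (median 0.23), and all 5 were negative in AFMC-AA-SP against AFMC (median -0.25). Fth1 (ENSRNOG00000022619, chromosome 1 of the deposited table) was at 2576, 3121 and 2786 CPM in Hollow replicates 1 to 3, at 4643, 3236 and 5251 CPM in AFMC and at 2714, 2515 and 3178 CPM in AFMC-AA-SP. AFMC replicates 1 and 3 were well above all others, and AFMC replicate 2 was only slightly above the highest Hollow and AFMC-AA-SP libraries, so AFMC overlapped neither group. The log2 fold change of Fth1 was 0.63 ± 0.18 (SE, n = 3 per group, adjusted p = 0.136 by edgeR) against Hollow, and -0.64 ± 0.18 (adjusted p = 0.162 by edgeR) for AFMC-AA-SP against AFMC. DESeq2 gave adjusted p-values of 0.0138 and 0.0141 for the same differences. Over the 21 alternatives the adjusted p of Fth1 ran from 0.0138 to 0.373 in the former and from 0.0141 to 0.385 in the latter.

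Ftl1 did not follow Fth1 library by library. It was at 3105, 3463 and 3823 CPM in Hollow, at 5172, 3398 and 3637 CPM in AFMC and at 3283, 3247 and 3737 CPM in AFMC-AA-SP. Only AFMC replicate 1 stood above the rest, and the groups overlapped. Its log2 fold change was 0.23 ± 0.17 (SE, adjusted p = 0.477 by edgeR) in AFMC against Hollow, and 0.02 without AFMC replicate 1. The ratio of Fth1 to Ftl1 counts was 1.44 in AFMC replicate 3 and 0.729 to 0.952 in the other 8 libraries, so that library alone held more counts for the heavy than for the light chain.

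Hmox1, which breaks heme down to iron, carbon monoxide and biliverdin, was at 688, 586 and 605 CPM in Hollow, at 690, 520 and 377 CPM in AFMC and at 410, 534 and 609 CPM in AFMC-AA-SP. The groups overlapped, and AFMC held both the highest and the lowest of the 9 libraries. Its log2 fold change was -0.24 ± 0.21 (SE, adjusted p = 0.563 by edgeR) in AFMC against Hollow and -0.28 ± 0.21 (adjusted p = 1) in AFMC-AA-SP against Hollow. Without AFMC replicate 3 the former was -0.05, and without AFMC replicate 1 it was -0.48. Without AFMC-AA-SP replicate 1 the latter was -0.13. Red blood cell markers (7 of 9 measured) summed to 718 to 1260 CPM in Hollow, 592 to 911 in AFMC and 469 to 2485 in AFMC-AA-SP, and the part of heme from these cells was not tested. Hmox2, the constitutive heme oxygenase, lay between 28.1 and 39.2 CPM in all 9 libraries.

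Nqo1, the quinone reductase that is a classical NRF2 target, was at 22.6, 34.5 and 22.8 CPM in Hollow, at 48.7, 27.2 and 35.3 CPM in AFMC and at 22.2, 24.9 and 25.6 CPM in AFMC-AA-SP. Every AFMC library was above every AFMC-AA-SP library, while Hollow replicate 2 reached into the AFMC range. Against Hollow the log2 fold change was 0.48 ± 0.22 (SE, adjusted p = 0.278 by edgeR) and -0.62 ± 0.23 (adjusted p = 0.229) for AFMC-AA-SP against AFMC. Without AFMC replicate 1 these values were 0.23 and -0.37.

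Neither of the 2 regulators had an unadjusted p under 0.05 by edgeR in any of the 3 comparisons. Nfe2l2, which encodes NRF2, was at 108, 129 and 116 CPM in Hollow, at 135, 122 and 192 CPM in AFMC and at 138, 120 and 139 CPM in AFMC-AA-SP. AFMC replicate 3 was high and the other AFMC libraries lay within or just above the range of Hollow and AFMC-AA-SP. In AFMC against Hollow the log2 fold change was 0.35 ± 0.16 (SE, adjusted p = 0.271 by edgeR), and 0.13 without AFMC replicate 3. In AFMC-AA-SP against AFMC it was -0.18 ± 0.16 (adjusted p = 0.581), and 0.04 without that library. Keap1, which targets NRF2 for degradation, was at 44.6, 44.3 and 46.4 CPM in Hollow, at 52.6, 41.6 and 53.4 CPM in AFMC and at 48.7, 43.4 and 45.7 CPM in AFMC-AA-SP, with all groups overlapping.

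Among the enzymes against superoxide and peroxide, mitochondrial Sod2 and peroxisomal Cat were the genes that stood out. Of the 9 genes of this role, 7 were positive in AFMC against Hollow (median 0.15), 4 in AFMC-AA-SP against AFMC (median -0.13) and 8 in AFMC-AA-SP against Hollow (median 0.03). Sod2 (ENSRNOG00000019048) was at 255, 388 and 260 CPM in Hollow, at 454, 470 and 1127 CPM in AFMC and at 344, 327 and 402 CPM in AFMC-AA-SP. AFMC replicate 3 had more than any other library, and the other AFMC libraries were still above every library of both other groups. Sod2 in AFMC exceeded Hollow by 1.18 ± 0.34 on the log2 scale (SE, with adjusted p-values of 0.134 by edgeR and 0.00864 by DESeq2) and the value was -0.93 ± 0.34 (adjusted p = 0.228 by edgeR) in AFMC-AA-SP against AFMC. Without AFMC replicate 3 the values were 0.62 and -0.37. Sod2 is induced by inflammatory cytokines and is high in activated neutrophils. The 12 listed neutrophil markers, none of them at 0 in all libraries, summed to 264 to 418 CPM in Hollow, 665 to 951 in AFMC and 448 to 608 in AFMC-AA-SP. Mmp9 took a large part of these sums, at 728, 566 and 351 CPM in AFMC replicates 1 to 3. S100a9 was at 15.5, 21.9 and 140 CPM, Csf3r at 31.8, 39.1 and 277 CPM and Cxcr2 at 11.1, 16.6 and 99.7 CPM in the same libraries. These markers were highest in AFMC replicate 3, as Sod2 was. Mpo, Ngp and Ltf, at 0.248, 0.149 and 0.248 CPM there, were not highest in that library, and neither was Mmp9. Of the 11 tested markers, 7 had higher and 1, Mpo, had lower AFMC values against Hollow at an unadjusted p under 0.05 by edgeR (all genes: 8.40% and 11.1%). The part of neutrophils in the Sod2 result was not tested.

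Cat, the peroxisomal enzyme that splits hydrogen peroxide, was the only gene of the set that was higher in AFMC than in Hollow and higher again in AFMC-AA-SP without overlap at either step. It (ENSRNOG00000008364) was at 71.8, 77.5 and 81.7 CPM in Hollow, at 93.5, 90.5 and 82.6 CPM in AFMC and at 96.6, 105 and 104 CPM in AFMC-AA-SP. AFMC replicate 3 was close to the highest Hollow library and AFMC replicate 1 close to the lowest AFMC-AA-SP library. Cat had a log2 fold change of 0.41 ± 0.08 (SE, n = 3 per group) in AFMC-AA-SP against Hollow, 1.32-fold, with an unadjusted p = 0.000595 and an adjusted p = 1 by edgeR. By its p Cat ranked 6 among all genes in that comparison, and DESeq2 gave an adjusted p of 0.0184, with 0.0184 to 1 over the alternatives. The steps from Hollow to AFMC and from AFMC to AFMC-AA-SP were 0.21 ± 0.08 and 0.20 ± 0.08 (SE, adjusted p = 0.198 and 0.254 by edgeR). Adipocytes are rich in Cat. Adipocyte markers (10 of 10 detected) summed to 1698 to 2513 CPM in Hollow, 748 to 2685 in AFMC and 1810 to 2605 in AFMC-AA-SP, mostly from Lpl and Fabp4. Adipoq, which encodes the adipocyte hormone adiponectin, was at 15.6 to 20 CPM in Hollow, at 4.12 to 9.83 in AFMC and at 30.2 to 48.8 in AFMC-AA-SP, and Plin1, which coats fat droplets, at 7.81 to 11, 1.49 to 4.86 and 16.1 to 26.7 CPM. Both were lowest in AFMC and highest in AFMC-AA-SP without overlap. Of the 10 markers, 4 had an unadjusted p under 0.05 and higher values in AFMC-AA-SP than in Hollow (all genes: 1.69%) and 6 in AFMC-AA-SP than in AFMC (10.1%), while 3 had such a p and lower values in AFMC than in Hollow (11.1%). The part of adipocytes in the Cat result was not tested.

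Sod3, the secreted superoxide dismutase of the matrix, was at 54.0, 47.2 and 54.0 CPM in Hollow, at 54.5, 50.2 and 58.2 CPM in AFMC and at 56.8, 62.9 and 73.6 CPM in AFMC-AA-SP. The AFMC-AA-SP libraries were all above Hollow, and replicate 1 overlapped AFMC. Against Hollow its log2 fold change was 0.32 ± 0.11 (SE, unadjusted p = 0.0167, adjusted p = 1 by edgeR), and against AFMC 0.25 ± 0.11 (adjusted p = 0.286). Without AFMC-AA-SP replicate 3 these were 0.21 and 0.14. Cytosolic Sod1 lay between 68.5 and 97.7 CPM, with all groups overlapping.

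None of the 5 glutathione peroxidases had an unadjusted p under 0.05 by edgeR in any of the 3 comparisons. Gpx1 was at 373, 407 and 497 CPM in Hollow, at 650, 493 and 449 CPM in AFMC and at 431, 455 and 535 CPM in AFMC-AA-SP, with only AFMC replicate 1 above the other libraries. Gpx4, the enzyme that reduces lipid peroxides in membranes and so restrains ferroptosis, was at 134, 138 and 145 CPM in Hollow, at 174, 152 and 136 CPM in AFMC and at 131, 137 and 154 CPM in AFMC-AA-SP. Its groups overlapped too. The extracellular Gpx3 was at 136, 134 and 157 CPM, then 140, 167 and 166 CPM, then 129, 163 and 140 CPM in the same order. All groups of Gpx3 overlapped. Of the peroxidases of the endoplasmic reticulum, Gpx7 was at 45.5, 41.9 and 37.2 CPM in Hollow, at 43.5, 46.7 and 50 CPM in AFMC and at 39.1, 44.4 and 43.8 CPM in AFMC-AA-SP. Gpx8 was at 69.3, 69.6 and 71.7 CPM in Hollow, at 67.4, 68.3 and 69.2 CPM in AFMC and at 65.5, 71.4 and 69.8 CPM in AFMC-AA-SP. AFMC lay below Hollow without overlap for Gpx8, but the nearest libraries were at 69.2 and 69.3 CPM.

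**Figure D3:**
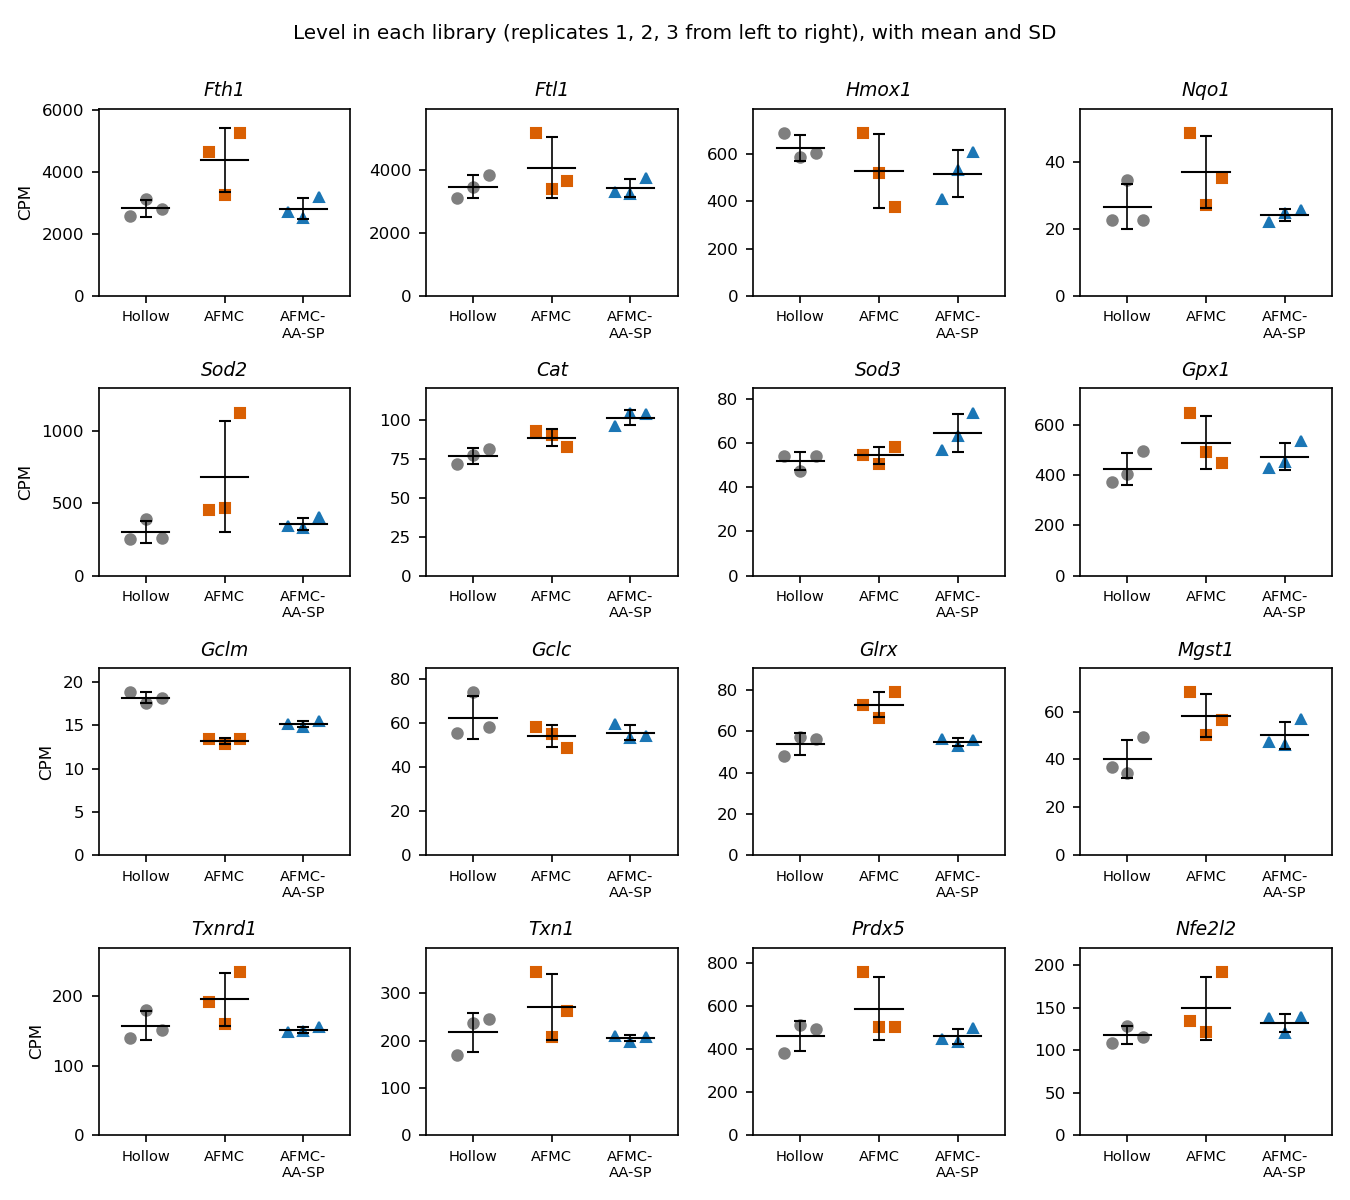
Level of 16 genes in every library, in CPM, with the 3 replicates of each group side by side, the mean as a horizontal line and the SD as a bar. Gclm and Glrx separate AFMC from both other groups, Cat steps up from Hollow to AFMC to AFMC-AA-SP, and the high AFMC mean of Sod2 rests in large part on replicate 3 at 1127 CPM.

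Of the 9 genes for glutathione supply and glutathione use, 6 were positive and 3 negative in AFMC against Hollow (median 0.14), and edgeR called 0. The unadjusted p was under 0.05 for 3 genes on the higher side and 1 on the lower (all genes: 8.40% and 11.1%). Set against AFMC, AFMC-AA-SP had 4 genes positive and 5 negative (median -0.19), with 1 higher and 2 lower at that p (all genes: 10.1% and 7.21%). The 3 negative genes in AFMC against Hollow were Gclm, Gclc and Slc7a11. Gclm, the modifier subunit of glutamate-cysteine ligase, whose catalytic subunit is Gclc and which makes the rate-limiting step of glutathione synthesis, had the smallest p of the 35 genes in AFMC against Hollow. Gclm (ENSRNOG00000013409) was at 18.8, 17.6 and 18.2 CPM in Hollow, at 13.4, 12.8 and 13.4 CPM in AFMC and at 15.1, 14.8 and 15.5 CPM in AFMC-AA-SP. The 3 groups were fully apart, with AFMC lowest and AFMC-AA-SP between AFMC and Hollow. Its log2 fold change was -0.46 ± 0.08 (SE, n = 3 per group, 0.727-fold, unadjusted p = 0.000213, adjusted p = 0.102 by edgeR) in AFMC against Hollow. It was 0.20 ± 0.08 (adjusted p = 0.248) in AFMC-AA-SP against AFMC and -0.26 ± 0.08 (adjusted p = 1) against Hollow. Over the 21 alternatives the value against Hollow ran from -0.57 to -0.43, with adjusted p-values from 0.00281 (DESeq2) to 0.313.

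Gclc was at 55.5, 74.0 and 58.3 CPM in Hollow, at 58.3, 55.3 and 48.6 CPM in AFMC and at 59.7, 53.4 and 54.0 CPM in AFMC-AA-SP. Its groups overlapped. Its log2 fold change was -0.21 ± 0.12 (SE, adjusted p = 0.359 by edgeR) in AFMC against Hollow, and -0.07 without Hollow replicate 2. The ratio of Gclc to Gclm on the FPKM scale was 1.44 to 2.05 in Hollow, 1.77 to 2.12 in AFMC and 1.70 to 1.93 in AFMC-AA-SP. Slc7a11, the cystine transporter that feeds glutathione synthesis, was at 31.6, 60.0 and 41.9 CPM in Hollow, at 34.5, 43.2 and 24.7 CPM in AFMC and at 58.5, 29.2 and 33.4 CPM in AFMC-AA-SP. Libraries of the same group differed by more than group means did. Slc7a11 had a log2 fold change of -0.38 ± 0.32 in AFMC against Hollow (SE, adjusted p = 0.539 by edgeR), and over the libraries left out it ran from -0.58 without Hollow replicate 1 to -0.10 without Hollow replicate 2.

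Among the enzymes that use glutathione, Glrx, Mgst1 and Gstp1 had an unadjusted p under 0.05 in AFMC against Hollow, while Gsr, Gstm1 and Gsta4 did not. Glrx, glutaredoxin, which removes glutathione from protein thiols, was at 47.9, 57.5 and 56.4 CPM in Hollow, at 73.0, 66.7 and 78.9 CPM in AFMC and at 56.1, 52.9 and 55.8 CPM in AFMC-AA-SP. AFMC lay above both other groups with a clear gap, and these overlapped with each other. The log2 fold change of Glrx (ENSRNOG00000012183) was 0.43 ± 0.09 (SE, adjusted p = 0.113 by edgeR, 0.00349 by DESeq2) in AFMC against Hollow. It was -0.41 ± 0.09 (adjusted p = 0.122 by edgeR, 0.00791 by DESeq2) in AFMC-AA-SP against AFMC, where it had the smallest p of the set.

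Mgst1, a membrane-bound glutathione transferase, was at 36.8, 34.5 and 49.2 CPM in Hollow, at 68.0, 50.2 and 56.6 CPM in AFMC and at 47.4, 46.0 and 56.7 CPM in AFMC-AA-SP. AFMC was above Hollow without overlap, by a small margin between AFMC replicate 2 and Hollow replicate 3. Mgst1 had log2 fold changes of 0.54 ± 0.16 (SE, adjusted p = 0.139 by edgeR and 0.0370 by DESeq2) in AFMC and 0.32 ± 0.16 (adjusted p = 1 by edgeR) in AFMC-AA-SP, each against Hollow. Over the libraries left out the latter ran from 0.22 without Hollow replicate 2 to 0.49 without Hollow replicate 3. Gstp1, the main cytosolic transferase of pi class, was at 92.3, 92.9 and 102 CPM in Hollow, at 131, 99.2 and 137 CPM in AFMC and at 106, 91.4 and 99.9 CPM in AFMC-AA-SP. AFMC replicate 2 lay among the libraries of both other groups. Gstp1 had log2 fold changes of 0.36 ± 0.12 (SE, adjusted p = 0.169 by edgeR) in AFMC against Hollow and -0.31 ± 0.12 (adjusted p = 0.254) in AFMC-AA-SP against AFMC. Gsr, which reduces oxidized glutathione, lay between 51.9 and 75.2 CPM. Gstm1 lay between 28.1 and 40.6 CPM, and Gsta4 between 1.94 and 9.09 CPM, with AFMC replicate 3 the lowest and AFMC-AA-SP replicate 1 the highest.

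The peroxiredoxins and the thioredoxin system had small negative values in AFMC-AA-SP against AFMC. All 10 measured genes of this role were negative in that comparison, from -0.40 to -0.09 (median -0.19). Of these, 2 had an unadjusted p under 0.05 (lower among all genes: 7.21%) and edgeR called 0. In AFMC against Hollow 9 were positive, with a highest value of 0.35 (median 0.16). In AFMC-AA-SP against Hollow 3 were positive and 7 negative (median -0.05). Txnrd1, the cytosolic thioredoxin reductase, was at 140, 181 and 152 CPM in Hollow, at 192, 160 and 235 CPM in AFMC and at 148, 150 and 156 CPM in AFMC-AA-SP. AFMC was above AFMC-AA-SP without overlap and overlapped Hollow. Txnrd1 had log2 fold changes of -0.37 ± 0.14 (SE, adjusted p = 0.245 by edgeR) in AFMC-AA-SP against AFMC and 0.31 ± 0.14 (adjusted p = 0.269) in AFMC against Hollow. Without AFMC replicate 3 these were -0.22 and 0.16.

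Txn1, its substrate, was at 169, 238 and 245 CPM in Hollow, at 345, 207 and 262 CPM in AFMC and at 209, 198 and 208 CPM in AFMC-AA-SP. Its groups overlapped, with AFMC replicate 1 high. Prdx5, a peroxiredoxin of mitochondria, peroxisomes and cytosol, was at 380, 509 and 492 CPM in Hollow, at 756, 503 and 500 CPM in AFMC and at 445, 430 and 498 CPM in AFMC-AA-SP. All AFMC libraries were above AFMC-AA-SP, 2 of them by a few CPM. The log2 fold changes in AFMC-AA-SP against AFMC were -0.40 ± 0.19 for Txn1 and -0.36 ± 0.18 for Prdx5 (SE, adjusted p = 0.315 and 0.334 by edgeR). Without AFMC replicate 1 these were -0.19 and -0.13.

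Prdx2 was at 136, 147 and 141 CPM in Hollow, at 161, 146 and 155 CPM in AFMC and at 121, 146 and 137 CPM in AFMC-AA-SP, with the nearest AFMC and AFMC-AA-SP libraries both at 146 CPM. Its log2 fold change in AFMC-AA-SP against AFMC was -0.19 ± 0.08 (SE, adjusted p = 0.286 by edgeR), and -0.12 without AFMC-AA-SP replicate 1. Prdx1 was at 274, 329 and 302 CPM in Hollow, at 355, 274 and 275 CPM in AFMC and at 275, 234 and 294 CPM in AFMC-AA-SP. Its groups overlapped. Of the remaining genes, mitochondrial Prdx3 lay between 39.2 and 53.6 CPM, Prdx4 of the endoplasmic reticulum between 47.9 and 65.6 CPM, Prdx6 between 81.4 and 106 CPM, mitochondrial Txnrd2 between 13.0 and 20.5 CPM and Msra between 5.57 and 8.48 CPM.

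Libraries of the same group followed the pattern to different degrees. Leaving out AFMC replicate 1, 2 or 3 gave 27, 28 and 29 positive genes of the 35 in AFMC against Hollow, where all libraries gave 28. The same for AFMC-AA-SP against AFMC gave 24, 27 and 28 negative genes, where all libraries gave 27. AFMC replicate 1 was the highest of the 9 libraries for 14 of the 35 genes and AFMC replicate 3 for 9, while AFMC replicate 2 was the highest for 3. Hollow replicate 1 was the lowest for 10 genes and AFMC-AA-SP replicate 1 for 9. The median deviation of the 35 genes from their mean over all libraries was 0.21 on the log2 scale in AFMC replicate 1 and 0.04 in AFMC replicate 3. It was 0.00 in AFMC replicate 2 and -0.11 to 0.01 in the other 6 libraries. With the length offset described below, this median was 0.13, 0.01 and -0.07 in AFMC replicates 1 to 3, and -0.11 to 0.07 in the other 6 libraries. Without AFMC replicate 1 the median log2 fold change of the 35 genes was 0.10 in AFMC against Hollow, and without AFMC replicate 3 it was 0.16. The spread within a group, as the SD in percent of the mean, had a median over the 35 genes of 14.5% in AFMC, 9.72% in Hollow and 8.17% in AFMC-AA-SP, against 13.6%, 10.3% and 9.1% over all genes tested.

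**Figure D4:**
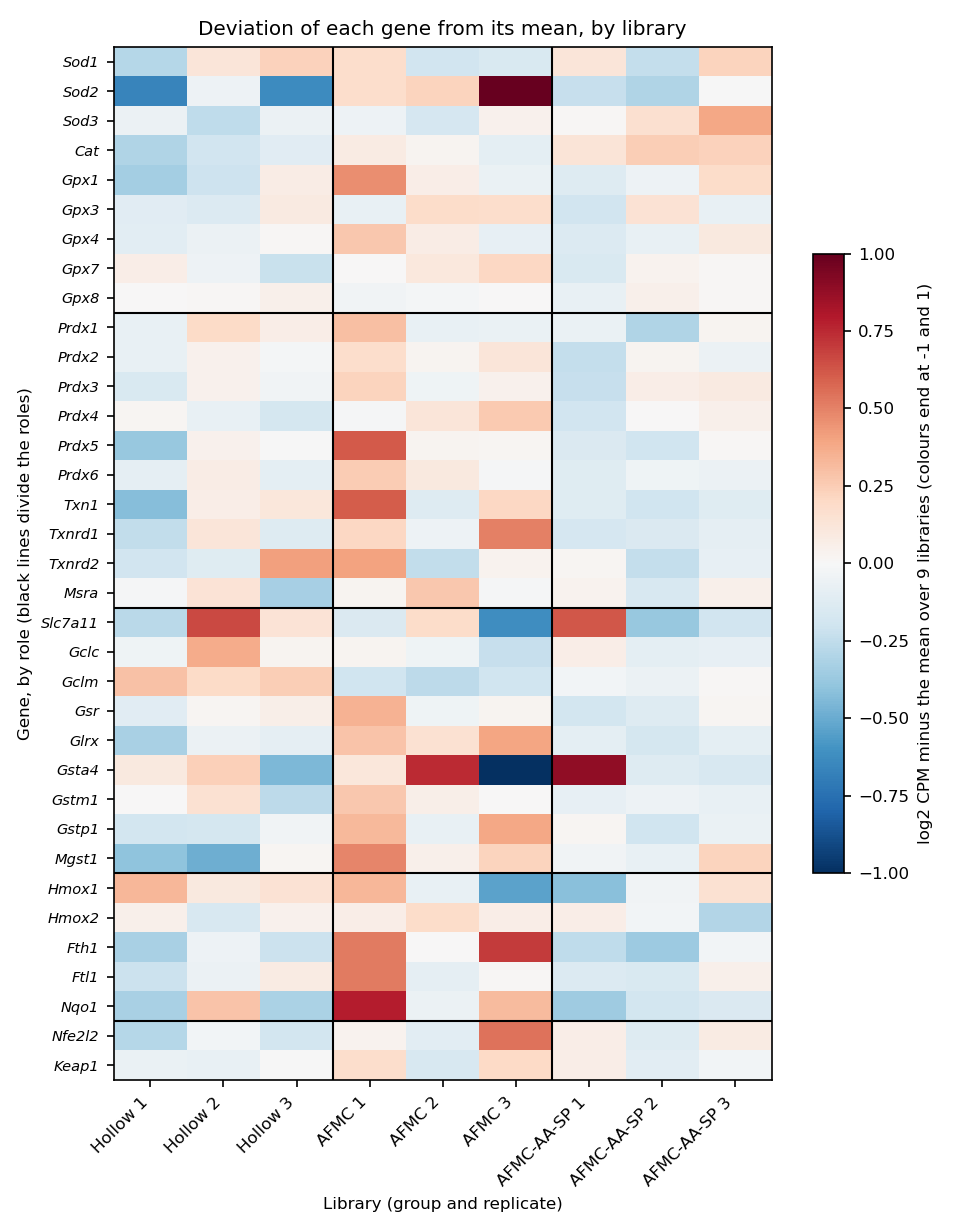
Deviation of log2 CPM from the gene's mean over 9 libraries, with 1 row per gene grouped by role and 1 column per library. AFMC replicate 1 is red for most genes. AFMC replicate 3 is darkest red for Sod2, less dark red for Fth1, Nfe2l2 and Txnrd1, and blue for Hmox1, Slc7a11 and Gsta4. The Gclm row is blue in all 3 AFMC libraries.

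Most of these genes are short, and the level of short genes relative to long ones differed between the libraries. The median length implied by the table was 1888 bp for the 35 genes, with a range of 802 to 6267 bp, against 2956 bp for all genes tested, and 26 of the 35 were shorter than that median. Spearman's rho of gene length with log2 fold change, taken across all genes tested and so not over independent replicates, was -0.278 in AFMC against Hollow, 0.291 in AFMC-AA-SP against AFMC and -0.00243 in AFMC-AA-SP against Hollow. Among all genes, those shorter than the median had a median log2 fold change of 0.08 in AFMC against Hollow and the others -0.06. An offset that follows this trend with gene length in each library brought the 3 correlations to 0.0211, -0.0252 and 0.00526. The offset removes the trend by construction, whatever its source, and so may also take out differences between the tissues. In single libraries without the offset, rho of gene length with the deviation of log2 CPM was -0.307, -0.0344 and -0.191 in AFMC replicates 1 to 3. It was 0.014 to 0.248 in the other libraries, with the highest in Hollow replicate 1 and 0.184 in AFMC-AA-SP replicate 1. The source of the trend was not tested.

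With the length offset the median of the 35 genes in AFMC against Hollow was 0.13, with 26 positive and 9 negative genes (all genes: 51.2% positive, median 0.01). In AFMC-AA-SP against AFMC it was -0.13, with 9 positive and 26 negative (all genes: 43.1% positive, median -0.04). In AFMC-AA-SP against Hollow 9 were positive and 26 negative, with a median of -0.03 (all genes: 42.3% positive, median -0.03). The 26 shorter genes had a median of 0.15 without and 0.09 with the offset in AFMC against Hollow, and the 9 longer ones 0.14 and 0.16. The differences of short genes higher in AFMC became smaller: Fth1 went from 0.63 to 0.46, Glrx from 0.43 to 0.30, Mgst1 from 0.54 to 0.40 and Gstp1 from 0.36 to 0.17. Gclm, also short, went from -0.46 to -0.57, and the longer Sod2 from 1.18 to 1.22. The number of genes higher in AFMC than in Hollow without overlap was 3 with the offset in place of 6 (all genes: 10.6% in place of 10.2%).

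**Figure D5:**
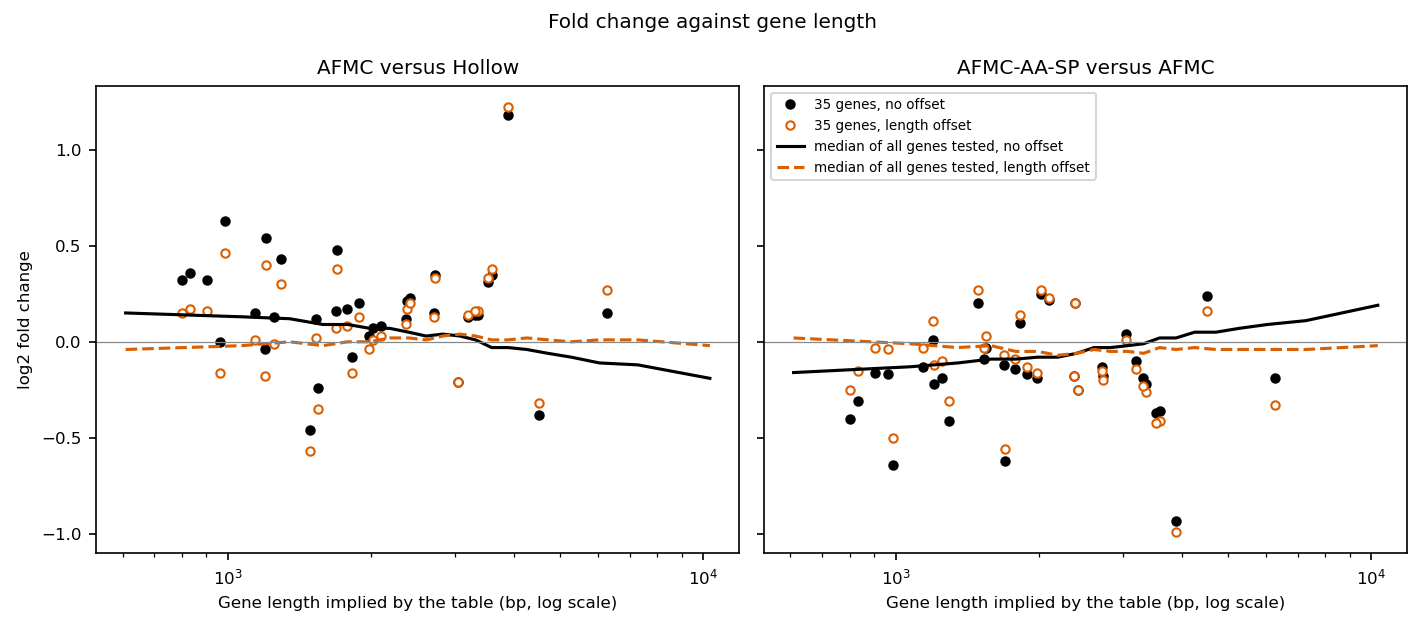
Log2 fold change of the 35 genes against gene length on a log scale, without (filled) and with (open) the length offset, in AFMC against Hollow and in AFMC-AA-SP against AFMC. Lines give the median of all genes tested in 20 bins of length, which without the offset slopes from 0.15 in the shortest bin to -0.19 in the longest in AFMC against Hollow, and is nearly flat with it.

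Among other genes of iron handling, the smallest p-values in AFMC against Hollow were those of the uptake genes Tfrc and Slc11a2. Of 20 tested genes for iron uptake, export and sensing, 4 had higher and 2 lower AFMC values at an unadjusted p under 0.05 in AFMC against Hollow (all genes: 8.40% and 11.1%), with a median of 0.07 and 0 called by edgeR. Tfrc, the transferrin receptor that brings iron into cells, was at 67.7, 51.7 and 57 CPM in Hollow, at 100, 95.1 and 200 CPM in AFMC and at 73.5, 65.5 and 67.8 CPM in AFMC-AA-SP. AFMC was above both other groups without overlap, and replicate 3 was the highest by far. Its difference from Hollow on the log2 scale was 1.16 ± 0.26 (SE, adjusted p = 0.115 by edgeR), 0.73 without AFMC replicate 3, and -0.93 ± 0.26 (adjusted p = 0.157) in AFMC-AA-SP against AFMC, -0.50 without that library. Slc11a2, which moves iron out of endosomes, had 0.63 ± 0.19 (adjusted p = 0.139 by edgeR) in AFMC against Hollow, and 0.35 without AFMC replicate 3. Cd163, the macrophage receptor for hemoglobin bound to haptoglobin, was at 94.3, 78 and 46.3 CPM in Hollow, at 32.8, 49 and 42 CPM in AFMC and at 65.5, 77.9 and 61.5 CPM in AFMC-AA-SP. All AFMC-AA-SP libraries were above AFMC, by 0.73 ± 0.24 on the log2 scale (SE, adjusted p = 0.205 by edgeR), and Hollow overlapped both. In AFMC against Hollow the value of Cd163 was -0.82 ± 0.25 (SE, adjusted p = 0.139 by edgeR and 0.0247 by DESeq2). Of the 12 listed macrophage markers, 3 had higher and 1, Cd163, had lower AFMC values against Hollow at an unadjusted p under 0.05 by edgeR (all genes: 8.40% and 11.1%).

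Of 14 tested genes for NADPH oxidase and other oxidant sources, 6 had higher and 1 had lower AFMC values against Hollow at an unadjusted p under 0.05 (all genes: 8.40% and 11.1%). In AFMC-AA-SP against AFMC 1 was higher and 5 were lower at that p (all genes: 10.1% and 7.21%), and edgeR called 0 in both. The gene that went against the others in both was Mpo, also a listed neutrophil marker. Its levels were low, at 1.51, 1.34 and 1.27 CPM in Hollow, at 0.197, 0.865 and 0.248 CPM in AFMC and at 1.98, 2.62 and 1.48 CPM in AFMC-AA-SP. AFMC was below both other groups without overlap for Mpo (adjusted p = 0.139 and 0.122 by edgeR). Smox, spermine oxidase, which releases hydrogen peroxide as it turns spermine into spermidine, had the smallest p of this list in each of the 3 comparisons. Its libraries were at 44.6, 47.2 and 45.9 CPM in Hollow, at 69.7, 65.2 and 78.6 CPM in AFMC and at 55.8, 51.1 and 50 CPM in AFMC-AA-SP. The groups were fully apart, with AFMC highest and Hollow lowest. Smox had log2 fold changes of 0.63 ± 0.08 (SE, adjusted p = 0.102 by edgeR) in AFMC against Hollow, -0.45 ± 0.08 (adjusted p = 0.104) in AFMC-AA-SP against AFMC and 0.19 ± 0.08 (adjusted p = 1) in AFMC-AA-SP against Hollow. Over the alternatives the adjusted p ran from 4.32e-07 to 0.313 in AFMC against Hollow and from 0.00109 to 0.293 in AFMC-AA-SP against AFMC. Ncf1, a cytosolic subunit of the phagocyte oxidase, was at 107, 136 and 122 CPM in Hollow, at 250, 186 and 376 CPM in AFMC and at 134, 130 and 152 CPM in AFMC-AA-SP. AFMC lay above both other groups without overlap. Ncf1 had log2 fold changes of 1.16 ± 0.22 (SE, adjusted p = 0.103 by edgeR) against Hollow and -0.96 ± 0.22 (adjusted p = 0.125) for AFMC-AA-SP against AFMC.

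Partners of NRF2 and its other targets showed no common direction. Of 16 tested genes, 2 had higher and 3 had lower AFMC values against Hollow at an unadjusted p under 0.05 (all genes: 8.40% and 11.1%), with a median of 0.06. Bach1, a repressor that competes with NRF2 at Hmox1 and ferritin genes, was at 86.9 ± 7.22 CPM in Hollow libraries and 66.7 ± 11.9 CPM in AFMC libraries (SD, n = 3). The difference on the log2 scale was -0.38 ± 0.12 (SE, adjusted p = 0.154 by edgeR). Abcc1, an exporter of glutathione conjugates, had -0.33 ± 0.10 (SE, adjusted p = 0.134 by edgeR). Mafk, a small partner protein of NRF2 and of Bach1, had 3.92 ± 0.188 CPM in Hollow against 5.22 ± 0.128 CPM in AFMC-AA-SP (SD, n = 3), 0.41 ± 0.14 on the log2 scale (SE, adjusted p = 1 by edgeR). Of the 16 tested genes of the NADPH and glutathione cycle 1 was higher in AFMC than in Hollow at that p (all genes: 8.40%), Taldo1 of the pentose phosphate pathway, with 0.35 ± 0.12 (SE, adjusted p = 0.170 by edgeR).

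Of the 11 tested genes of ferroptosis and lipid peroxide handling, 2 were higher in AFMC than in Hollow (all genes: 8.40%) and 2 lower in AFMC-AA-SP than in AFMC (all genes: 7.21%) at an unadjusted p under 0.05. Gch1, which starts the synthesis of the antioxidant tetrahydrobiopterin, had 15.4 ± 2.09 CPM in Hollow, 27.2 ± 7.86 CPM in AFMC and 17.7 ± 1.43 CPM in AFMC-AA-SP (SD, n = 3). The AFMC value exceeded that of Hollow by 0.82 ± 0.20 on the log2 scale (SE, adjusted p = 0.115 by edgeR). Slc3a2, the partner chain of Slc7a11 and of other amino acid transporters, had 0.28 ± 0.10 (SE, adjusted p = 0.192 by edgeR), and 0.18 without AFMC replicate 3. Of 10 tested metallothionein and selenoprotein genes, 4 had higher and 1 had lower AFMC values against Hollow at that p (all genes: 8.40% and 11.1%). Mt2A, a metal-binding metallothionein, had 15 ± 4.03 CPM in Hollow, 9.68 ± 0.149 CPM in AFMC and 9.93 ± 1.65 CPM in AFMC-AA-SP (SD, n = 3), and its log2 fold changes against Hollow were -0.63 ± 0.19 and -0.59 ± 0.19 (SE, adjusted p = 0.141 and 1 by edgeR), or -0.39 and -0.35 without Hollow replicate 2. Sephs2, which makes the selenium donor for selenoproteins, had 0.52 ± 0.15 (SE, adjusted p = 0.133 by edgeR) in AFMC against Hollow, and 0.31 without AFMC replicate 3.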

How the data were processed

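RNA sequencing was done on 9 libraries in 3 groups of 3, with poly(A) capture, strand marking by dUTP, inserts of 250 to 350 bp and paired reads of 150 bp, per the labels' protocols. The deposited gene table holds whole-number counts and FPKM, both made by the authors, and each FPKM is a count scaled by the library total and by a gene length that is the same in all libraries. The sources used here do not name the aligner, the counting program or the genome build. Reads carry no molecular identifiers. Srxn1 is not analysed here.

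Counts were fitted in R 4.3.3 with edgeR 4.0.16: filterByExpr, TMM factors, and a quasi-likelihood F test with a term per conduit group over all 9 libraries, two-sided, with adjusted p-values by Benjamini-Hochberg over the 15659 genes tested and a threshold of 0.05. The standard error is the log2 fold change divided by the square root of F. CPM use the TMM-scaled totals. Groups were taken not to overlap when every library of one was above every library of the other. Exact permutation of 3 against 3 libraries cannot give a p below 0.1, so single values were not tested that way. The length offset removes, in each library, a spline of log2 CPM deviation on log2 gene length with 5 degrees of freedom. Alternatives were factors by RLE or upper quartile, a filter at 1 CPM in 3 libraries or none, only the 2 groups compared, DESeq2 1.42.0, the replicate number as a block, limma 3.58.1 on log2(FPKM + 1) or with 0.1 in place of 1, the length offset alone and with others, and each library left out. The fitting steps were also run on simulated counts. These held no trend with gene length and no outlying library, so that run does not show how the steps handle either.

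The genes and lists were chosen with earlier results of these data known. By rule, values in every library are given for 21 set genes and the 5 genes of smallest p in each comparison, and up to 2 genes are named per further list and comparison. Promoter windows are from RefSeq, build GRCr8. Replicates of the same group were compared by chi-square, and no library repeated another of its group.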

Additional observations from a re-analysis of the deposited data

How the results depend on the processing

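Under edgeR 0 of the 35 genes were called in each comparison and over all groups, and 5, 2 and 1 were called by DESeq2 in AFMC against Hollow, AFMC-AA-SP against AFMC and AFMC-AA-SP against Hollow, and 5 over all groups. Leaving out each library in turn gave 0 to 4, 0 to 3, 0 to 0 and 0 to 1 called genes in the same order, and the counts above 0 came without AFMC replicate 2. The other alternatives called 0. Over the libraries left out the medians of the 35 genes ran from 0.10 to 0.21, -0.21 to -0.09 and -0.04 to 0.04 in the 3 comparisons.

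A set of 67 log2 fold changes, some of which the text does not give, was recomputed under 21 alternatives each. Of these 1407 values, 1368 kept their direction and their side of the threshold, 37 passed the threshold of 0.05, and 2 changed sign. Both of the latter were Nfe2l2 in AFMC-AA-SP against AFMC, at 0.04 without AFMC replicate 3 and 0.02 with the length offset and without that library, and the cause was not tested. Over the libraries left out that value ran from -0.31 to 0.04. Genes whose groups did not overlap in AFMC against Hollow were 3 higher on the log2(FPKM + 1) scale (all genes: 6.41%), 15 without AFMC replicate 2 (19.2%) and 14 without Hollow replicate 2 (15.2%), in place of 6 (10.2%). In AFMC-AA-SP against AFMC the lower ones were 5 on the FPKM scale (5.82%) and 15 without AFMC replicate 2 (18.5%), in place of 9 (10.3%). With 2 libraries in a group, fewer values have to be apart for any gene.

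Replicate numbers are shared by the groups. Of 9 same-numbered pairs of libraries, 2 had a correlation of deviations over 0.1, with a range of -0.0466 to 0.14. Pairs with different numbers ran from -0.129 to 0.0843. These low values show no strong pairing by number, but they cannot exclude a weak one. With the replicate block the medians were 0.15, -0.17 and -0.01 and the calls among the 35 genes 0, as without it. With 3 libraries per group, a missing call does not show that a gene was unchanged.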

Other observations

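Genes of the further lists whose levels were far higher in a single library were chosen after their values were seen. Lcn2, which encodes lipocalin 2, a protein that binds iron-loaded siderophores and is abundant in neutrophils, was at 195 CPM in AFMC replicate 3 and at 3.82 to 10 CPM in the other 8 libraries. Hp, haptoglobin, which binds free hemoglobin, had 24.2 CPM there, against 3.46 to 7.67 CPM elsewhere. Nos2, the inducible nitric oxide synthase, was at 730 CPM there, at 134 and 180 CPM in AFMC replicates 1 and 2 and at 29.8 to 128 CPM in Hollow and AFMC-AA-SP.

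The sensor genes of iron supply gave small values. Ireb2, an iron regulatory protein that protects Tfrc messenger RNA and blocks ferritin translation when iron is low, was at 95.5, 88 and 90.2 CPM in Hollow, at 71.6, 82.5 and 81.5 CPM in AFMC and at 91.2, 90.9 and 90.1 CPM in AFMC-AA-SP. AFMC was below both other groups without overlap, and the adjusted p by edgeR was 0.165 against Hollow and 0.22 for AFMC-AA-SP against AFMC. Aco1, the other iron regulatory protein, lay between 107 and 162 CPM with all groups overlapping. Ireb2 and Aco1 were also chosen after their values were seen.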
